A study of Arabidopsis thaliana with 3 samples.

Results

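The array titled Col-0-MKK2-w.t.4 was compared with the array titled Col-0-untreated, 2 of the 3 arrays in the series. They were taken by their titles, and all 22746 probe sets other than the Affymetrix controls were compared. Each array holds leaf RNA of Arabidopsis thaliana plants aged 2 weeks. Col-0 is the common laboratory accession, and the titles of the remaining arrays add MKK2 to that name. The title of the compared array reads w.t.4 while the source name reads EE4, so the array is named here by its title and nothing is said of the construct it holds. The labels give no promoter, no number of plants per array and no statement on pooling, and no treatment other than "untreated" in the title of the Col-0 array. The remaining array, titled Col-0-MKK2-EE4, is given side by side, and both MKK2 arrays are read against the same Col-0 array, whose own deviations enter both sets of ratios. With 1 array a group there was no test, no replicate error and no p-value, and a difference of 2-fold or more was used as a rule of size.

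MKK2 is a MAP kinase kinase, the middle enzyme of a cascade in which each kinase phosphorylates and switches on the next. In Arabidopsis it is activated by cold and salt through MEKK1, and it in turn activates the MAP kinases MPK4 and MPK6. Such cascades carry stress and pathogen signals from the cell surface to transcription factors, and their early targets include calcium sensors, ubiquitin ligases and WRKY and zinc finger factors. No probe set is named MKK2 in the annotation used here, so the level of the MKK2 transcript was not checked on these arrays. The labels name leaf, and the leaf markers with a named probe set, RCA and LHCB4.1 (2 of 20 listed), had a summed signal of 11283 in Col-0 and 10251 in the array titled MKK2-w.t.4. The root markers EXPA7 and EXPA18 and 1 flower marker were under 25 on both arrays. The guard cell markers AT1G22690 and FMA (2 of 5 listed) summed to 430.3 in Col-0 and 356 in the array titled MKK2-w.t.4, whose part in the results was not tested. No seed or trichome marker has a named probe set. In whole leaves, fewer cells of a type and less RNA per cell cannot be told apart.

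Signals were MAS5 values, linear intensities that the authors scaled to the same trimmed mean of 100.01 on every array. Values under 25 were set to 25 before a ratio was taken, and a ratio with such a value on the lower side is a lower bound. Signals were under 25 at 9549 probe sets in Col-0 and 10350 in the array titled MKK2-w.t.4, and 9161 probe sets (40.3%) were under it on both. Of the 64 Affymetrix controls, none that had a signal of at least 100 was 2-fold apart. Many of the others were under 25 on both arrays and have no readable ratio. An annotation names 1 gene for 13513 of the probe sets, which stand for 13355 genes, and only 1557 of these carry a symbol in place of a locus number.

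Most of the leaf transcriptome lay close to Col-0, and the differences leaned to one side. Of 5581 probe sets with a signal of at least 100 on both arrays, 44.2% were within 1.1-fold of Col-0 and 92.8% within 1.5-fold. Counted over the whole array, 318 probe sets reached 2-fold above Col-0 (1.4%) and 89 reached 2-fold below it (0.391%). The asymmetry grew with the size of the difference. At 3-fold 121 were higher and 12 lower, at 4-fold 63 and 3, at 6-fold 25 and 1, and at 8-fold 10 and 0. At 1.5-fold the order was turned, with 754 higher and 891 lower. A floor of 10 in place of 25 turned it as well, with 449 higher and 508 lower, while loess centring gave 383 and 50. Among probe sets with a signal of at least 100 on either array the excess of higher ones held at both thresholds, with 245 against 37 at 2-fold and 445 against 278 at 1.5-fold.

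**Figure D1:**
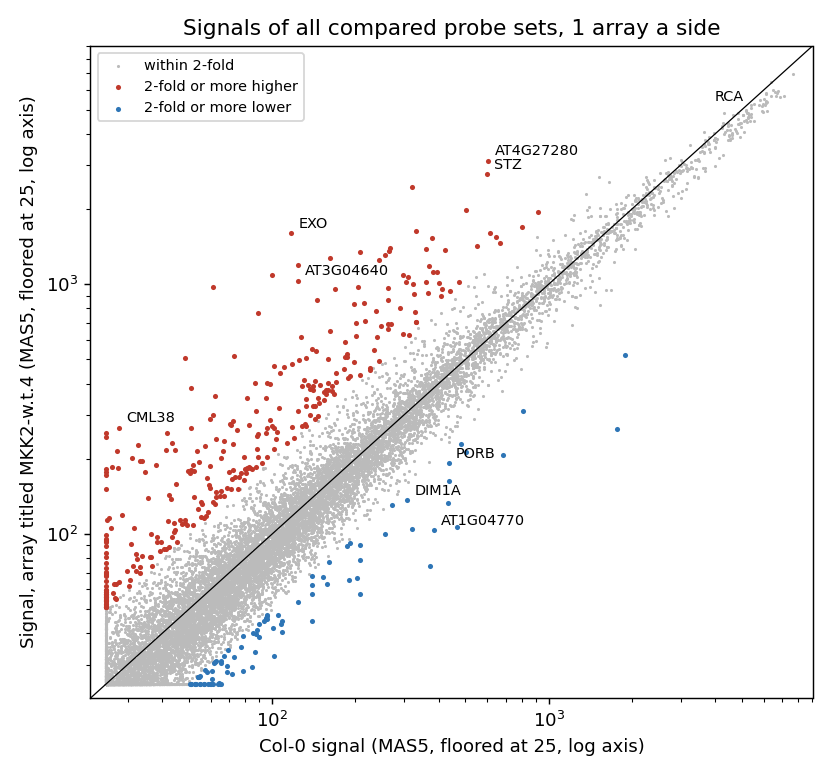
Signal of each of the 22746 probe sets in Col-0 (x axis) and in the array titled MKK2-w.t.4 (y axis), MAS5 units with a floor of 25, both axes logarithmic. Red points (318) are 2-fold or more above Col-0, blue points (89) 2-fold or more below it, grey points lie between, and the line marks equal signals.

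The share of higher probe sets varied with signal, and its course depended on which signal was used. Among probe sets with a Col-0 signal of 100 to 200, 2.44% were 2-fold or more higher, and among those of 200 to 500, 2.38% were. At 500 to 1000 it was 9 of 719, and it was 0% for the 349 probe sets of 1000 to 2000 and the 260 above 2000. Among the 500 probe sets brightest on both arrays together, 6 were higher and 1 was lower, and the central 90% lay between 0.783-fold and 1.22-fold of Col-0. The 40 brightest named genes lay between 0.744-fold and 1.12-fold. The Col-0 signal is the lower part of the ratio, so these classes are not independent of the ratio. Sorted by the mean of both arrays instead, the share higher was 1.82% at 50 to 100, 3.22% at 100 to 200, 3.66% at 200 to 500, 5.7% at 500 to 1000, 2.48% at 1000 to 2000 and 0% above 2000.

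Counted once per named gene, 143 of 13355 genes were 2-fold or more higher (1.07%) and 38 were lower (0.285%). Among the 7291 genes with a signal of at least 25 on either array these shares were 1.96% and 0.521%. Among the 3216 genes with a signal of at least 100 on either array, 108 were higher (3.36%) and 13 were lower (0.404%). Of those 108 higher genes, 23 carry a symbol and 85 only a locus number, so the groups below describe a minority of them. Groups were matched by symbol or by list, so a family's locus-only members can be missing from its count. Each group's count is to be read against these shares, 1.07% higher over all named genes and 1.96% over those with a signal of at least 25. At these shares a small group with no gene past 2-fold is near the background and is not a result about that family. Genes were sorted into 76 functional groups, of which 46 held 3 or more named genes. In 14 of the 46 groups at least 1 gene was 2-fold or more higher, in 3 at least 1 was lower, and in 30, holding 316 genes, none passed 2-fold either way. All groups together held 572 genes, with 28 higher and 4 lower. The remaining 115 higher and 34 lower genes were in no group.

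EXO (EXORDIUM), which promotes cell expansion in response to brassinosteroid, stood highest among named genes. Its signal was 117 in Col-0, 1602 in the array titled MKK2-w.t.4 and 1227 in the array titled MKK2-EE4. That is a log2 ratio of 3.77 over Col-0 for the array titled MKK2-w.t.4. The other brassinosteroid-linked gene that could be read, BRH1, a RING-type ubiquitin ligase gene, had signals of 485, 339 and 354 in the same order, a log2 ratio of -0.52. It did not reach 2-fold, and the remaining member of this group, BIN4, was under 25 on both arrays.

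Several calcium sensors were higher. The group held 8 calmodulin-like genes matched by name or list, whose proteins bind calcium and pass its signal on. Of these 8, 3 were 2-fold or more higher and none was lower. Calcium sensor genes with only a locus number can be missing from the group. Over all named genes 1.07% were higher. CML38 gave 28 in Col-0, 267 in the array titled MKK2-w.t.4 and 170.0 in the array titled MKK2-EE4, so it was close to the floor in Col-0 and well above it in both others. CML23 had signals of 49.7, 178 and 110.0, a log2 ratio of 1.84. CML37 reached 50.9 in the array titled MKK2-w.t.4 and was under 25 in the other arrays, so it was at least 2.04-fold higher. CML42, the brightest of these 8 in Col-0, did not follow them: its signals were 148, 153 and 98.4. CML30 was at 81.7 and 89.3, a log2 ratio of 0.13.

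Ubiquitin ligases of the U-box and RING types, which mark other proteins for breakdown, were split. Of 15 genes matched by name or list, 4 were 2-fold or more higher, against 1.07% of all named genes. None of these 15 was 2-fold lower, but ligase genes with only a locus number can be missing from the group. PUB23, which restrains immune signalling, gave 31.2 in Col-0, 202 in the array titled MKK2-w.t.4 and 88.1 in the array titled MKK2-EE4. Its relative PUB22 had 17.1, 53.8 and 27.0, at least 2.15-fold higher. PUB22 was named after its values were seen. PUB24, which acts with them, was on the other side of Col-0, with 113, 89.2 and 64.2. PUB25 and PUB19 had log2 ratios of 1.22 and 1.19. PUB26, at 64.9 and 110.5, stayed under 2-fold with a log2 ratio of 0.77.

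Transcription factor genes with a symbol included STZ (ZAT10), a zinc finger repressor of the stress response, with 599 in Col-0, 2751 in the array titled MKK2-w.t.4 and 1805 in the array titled MKK2-EE4. Of 7 WRKY genes, a family of defence and stress regulators, 2 were 2-fold or more higher, against 1.07% of all named genes. WRKY22, which acts in pattern-triggered immunity, had 45.0, 159 and 113, so both MKK2 arrays were above Col-0. WRKY53, a regulator of leaf senescence, had 70.0, 177 and 70.3, so that the array titled MKK2-EE4 lay at the Col-0 level. ZAP1 (WRKY1) was at 61.6 and 96.3, a log2 ratio of 0.64. WRKY20, the brightest of these 7 genes in Col-0, was at 178 in Col-0 and had a log2 ratio of -0.53.

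None of the 8 bHLH genes and none of the 17 bZIP genes that could be matched by name passed 2-fold in either direction. Only 7 of the bHLH and 9 of the bZIP genes reached 25 on either array. Having none past 2-fold is near the background of 1.96% and is not a result about these families. The bZIP genes nearest to 2-fold were AT2G40620 (bZIP18), with a log2 ratio of -0.82, and BZIP53. The latter takes part in metabolic reprogramming under low energy. BZIP53 gave 389 in Col-0, 692 in the array titled MKK2-w.t.4 and 546 in the array titled MKK2-EE4. BZIP60, a transcription factor of the response to stress in the secretory pathway, was at 288 and 390.4, a log2 ratio of 0.44. HYH, a relative of the light regulator HY5, had a log2 ratio of -0.33. Of the bHLH genes, MYC4, a jasmonate response factor, was at 116 and 128, and ILR3, a regulator of iron homeostasis, at 621 and 529. AT2G40620 was named after its values were seen.

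A hand-written list of 61 rapid stress-response loci gathered several of these genes. It had a named probe set for 11, all with a signal of at least 25 on either array. Of these, 10 were 2-fold or more higher and none was lower, against 1.96% higher among named genes with such a signal. The list was written with earlier results of these data known, so its count, median and direction are not independent evidence. Its median log2 ratio was 2.01, against -0.10 over named genes with such a signal. In the array titled MKK2-EE4 the median of the list was 1.5 with 7 genes higher. Beside CML38, CML37, PUB22, PUB23, STZ and WRKY53, the higher members were AT5G52050, AT4G29780, AT1G72920 and AT1G66090. AT5G52050 (DTX50), an efflux carrier gene, was just under 25 in Col-0, 178 in the array titled MKK2-w.t.4 and 93.8 in the array titled MKK2-EE4, at least 7.12-fold higher in the array titled MKK2-w.t.4. AT4G29780 was brighter, at 209, 1348 and 807. PUB24 was the member that was not higher.

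**Figure D2:**
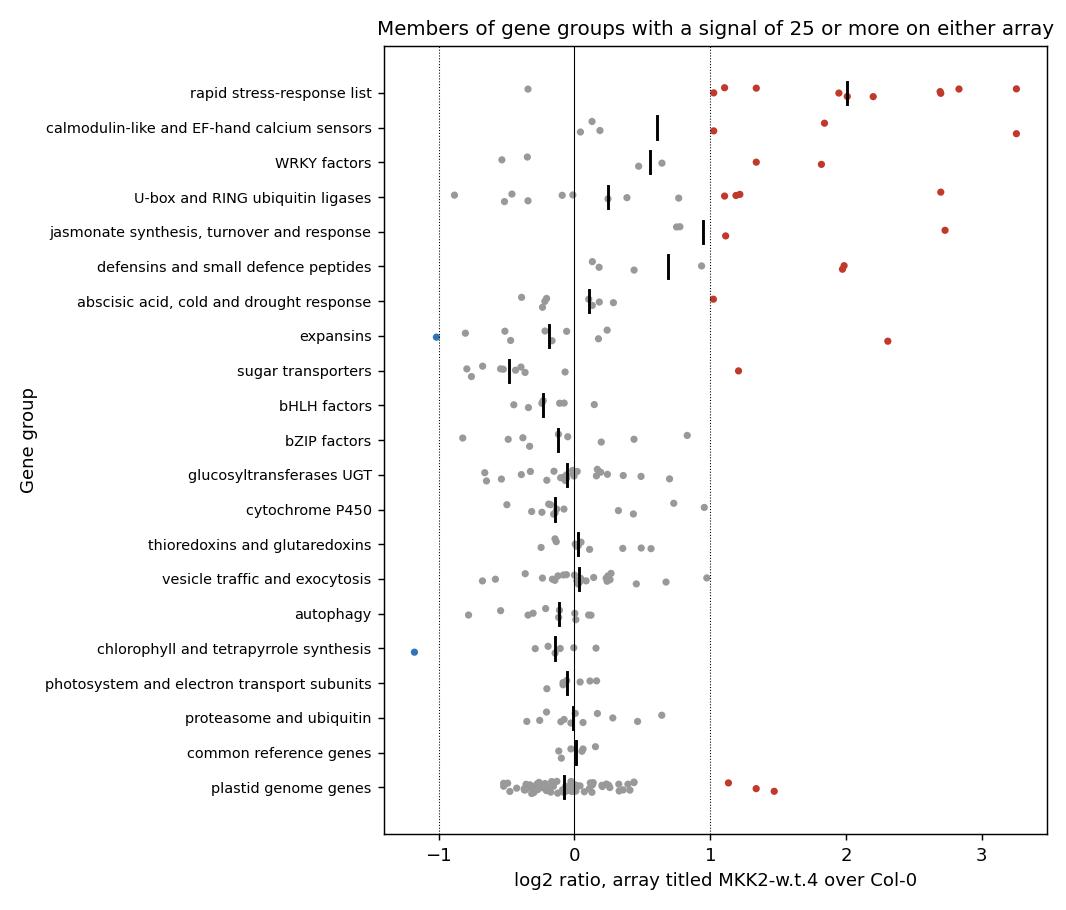
Log2 ratio of the array titled MKK2-w.t.4 over Col-0 for each gene of 21 functional groups with a signal of at least 25 on either array. Red points are 2-fold or more higher, blue points 2-fold or more lower, black bars are medians and dotted lines mark 2-fold. In calcium sensors, ubiquitin ligases and the rapid stress-response list several points lie right of 2-fold, while nuclear photosystem, autophagy and proteasome genes lie around 0.

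Hormone and defence genes differed member by member. Of 9 genes on the jasmonate list, 2 were 2-fold or more higher, against 1.07% of all named genes. AT5G05600 gave 27.7 in Col-0, 183 in the array titled MKK2-w.t.4 and 152 in the array titled MKK2-EE4. OPCL1, an enzyme that activates a precursor for the last steps of jasmonate synthesis, had 84.3, 182 and 152. In both genes the MKK2 arrays were close to each other and above Col-0. AT2G38240, at 37.5 and 64.2, had a log2 ratio of 0.78.

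Of 18 genes for defensins and other small defence proteins, 2 were 2-fold or more higher, against 1.07% of all named genes. Both were of the PDF1.2 type, a common readout of jasmonate and ethylene. PDF1.2 gave 70.1 in Col-0, 275 in the array titled MKK2-w.t.4 and 519 in the array titled MKK2-EE4, and PDF1.2b had 139, 552 and 975. For these genes the array titled MKK2-EE4 was the highest of the 3, the reverse of the order seen for EXO, CML38, PUB23 and STZ. The name of the PDF1.2b probe set marks it as able to read related genes, so the measurements may not be separate, which was not tested. LCR68, another defensin gene (PDF2.3), was at 395 and 448, a log2 ratio of 0.18. The remaining 16 genes of the group did not pass 2-fold, but only 6 of the 18 had a signal of at least 25 on either array. All 6 were above Col-0, and the others have no readable ratio.

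Cold, drought and abscisic acid genes gave 1 of 14 members 2-fold or more higher, against 1.07% of all named genes. COR47, a dehydrin that protects cells during freezing and drying, had 143 in Col-0, 289.7 in the array titled MKK2-w.t.4 and 229.9 in the array titled MKK2-EE4, just past the threshold. COR27 was at 249 and 214, COR15B, a cold-protection protein gene of the chloroplast, at 59.7 and 51.8, and RD2 at 356 and 390.1. The dehydrin gene AT1G54410 (HIRD11) was at 881 and 1075, a log2 ratio of 0.29. None of 11 auxin genes and none of 6 cytokinin response regulators passed 2-fold. For cytokinin and most auxin genes this says little, since 4 of the former and 7 of the latter were under 25 on both arrays.

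Cell wall genes included both directions. Of 19 expansins, which loosen the wall during growth, 1 was higher and 1 lower, against 1.07% and 0.285% of all named genes. Only 10 of the 19 had a signal of at least 25 on either array. EXLA1, an expansin-like gene, had 38.1 in Col-0, 188 in the array titled MKK2-w.t.4 and 177 in the array titled MKK2-EE4. EXPA8, the brightest of the 19 in Col-0, had 555, 318 and 513, a log2 ratio of -0.80, so the array titled MKK2-EE4 lay near Col-0. EXPB1 was at 50.6 and then under 25, at least 2.02-fold lower, and is named after its values were seen. ATPMEPCRB (PME41), a pectin methylesterase gene, was at least 3.59-fold higher, with 16.8, 89.8 and 48.7. PMEPCRF, the brightest of the 4 pectin enzyme genes, was at 531 and 513. None of 11 xyloglucan enzyme genes passed 2-fold, which is near the background and is not a result about them. XTH16 came nearest with 26 and 50.8.

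Transport genes lay on both sides of Col-0: of 61 with a signal of at least 25, 29 were above and 32 below, and 3 were 2-fold or more higher. Over all named genes with such a signal 1.96% were higher. Of 19 sugar transporter genes, 1 was 2-fold or more higher, against 1.07% of all named genes. SWEET17, a fructose carrier of the vacuole membrane, had 140.3 in Col-0, 324 in the array titled MKK2-w.t.4 and 216 in the array titled MKK2-EE4. The brighter SWEET11, which releases sucrose for loading into the phloem, had 1519.9, 1057 and 1212, and SWEET1 had 267, 158 and 171. SWEET2 and the vacuolar importer TMT1 had log2 ratios of -0.39 and -0.43. Of the 10 sugar transporter genes with a signal of at least 25, SWEET17 was above Col-0 and the other 9 were below it. The remaining 9 sugar transporter genes were under 25 on both arrays and have no readable ratio. Over all 7291 named genes with a signal of at least 25, 2596 were above Col-0 and 4695 below it.

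GTR1, an importer of the defence compounds called glucosinolates, had 120.4, 243 and 239, a log2 ratio of 1.01. Its closest relative GTR2 was at 191 and 178, and the nitrate family members AT3G21670 and AT2G26690 had log2 ratios of 0.07 and 0.03. None of 29 genes of vesicle traffic passed 2-fold, although SEC10, a subunit of the exocyst that tethers vesicles, was at 281 and 187. None of 11 autophagy genes passed it. With 1.96% of named genes higher at a signal of at least 25, these counts are near the background. They are not a result about vesicle traffic or autophagy. ATG8E, one of the small proteins that coat the autophagosome, came nearest with 466 in Col-0, 271 in the array titled MKK2-w.t.4 and 295 in the array titled MKK2-EE4. The brighter ATG8F had 1229, 995 and 1261, and ATG8C had 291, 293 and 283.

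Most of the genes furthest above Col-0 carry only a locus number. AT1G33760 gave 2.99 in Col-0, under the floor, 253 in the array titled MKK2-w.t.4 and 97.4 in the array titled MKK2-EE4, so it was at least 10.1-fold higher in the array titled MKK2-w.t.4. AT3G04640 gave 124, 1035 and 548, and AT4G27280, the brightest of the 30 highest in the array titled MKK2-w.t.4, gave 602, 3123 and 2339. In these genes both MKK2 arrays were above Col-0. AT1G24140 differed, with 59.6, 289 and 68.4, so that the array titled MKK2-EE4 lay near Col-0.

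Among the remaining higher genes with a name were RALFL22, a gene for a secreted signalling peptide, TET8, a tetraspanin of the cell membrane, and AT5G61590 (DEWAX), a repressor of wax synthesis genes, all picked after their values were seen. RALFL22 gave 133 in Col-0, 349 in the array titled MKK2-w.t.4 and 239 in the array titled MKK2-EE4. TET8 was already bright in Col-0, at 801 against 1696, a log2 ratio of 1.08. AT5G61590 stood at 413 and 957, a log2 ratio of 1.21.

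**Figure D3:**
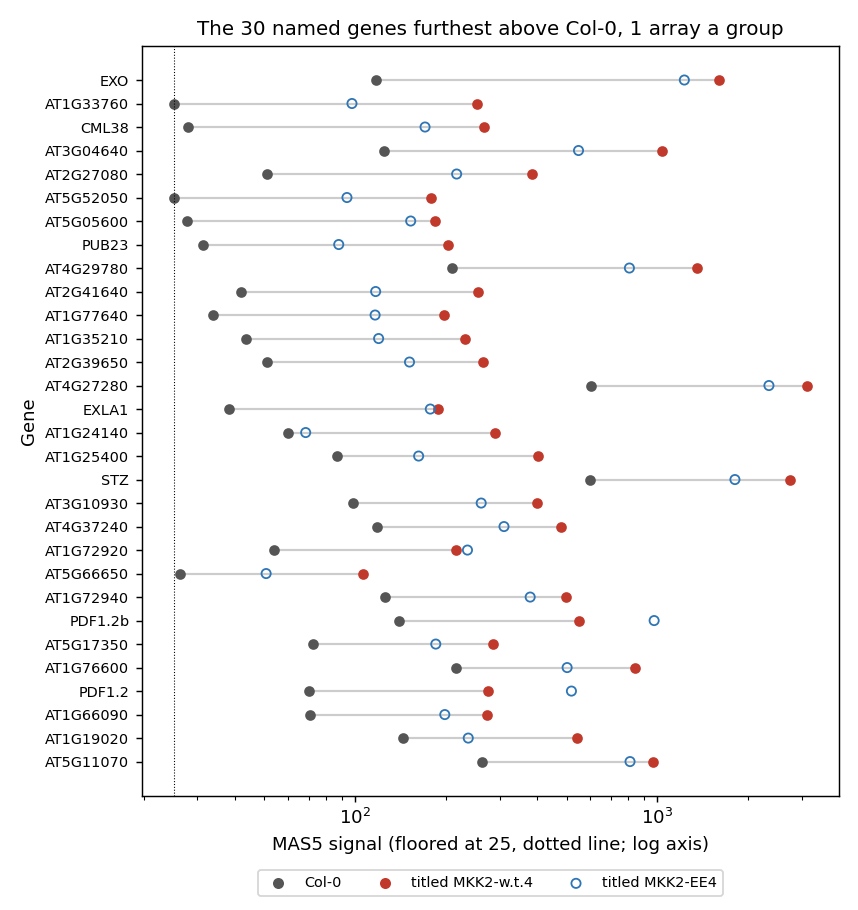
MAS5 signals (x axis, logarithmic, floor of 25 dotted) of the 30 named genes furthest above Col-0 with a signal of at least 100 on either array, 1 gene a row. Grey is Col-0, red the array titled MKK2-w.t.4 and open blue circles the array titled MKK2-EE4, and most blue circles lie between the other points, while those of PDF1.2, PDF1.2b and AT1G72920 lie to the right of both.

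Photosynthesis genes of the nucleus that were matched by name lay close to Col-0. The plastid genes rbcL, psbB and petG, given below, were 2-fold or more higher. The 7 nuclear photosystem genes had log2 ratios between -0.20 and 0.16 and the 3 nuclear Calvin cycle genes between -0.19 and -0.03. LHCB4.1, an antenna protein of photosystem II, had 5384 in Col-0, 5079.7 in the array titled MKK2-w.t.4 and 5838 in the array titled MKK2-EE4. RCA, which keeps rubisco active, had 5899, 5172 and 5323. PSAE-1, of photosystem I, was at 4324 and 4841, a log2 ratio of 0.16.

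Chlorophyll synthesis matched it but for 1 gene. Of 8 genes of the pathway, PORB, the light-dependent enzyme that reduces protochlorophyllide, was 2-fold or more lower, with 435 in Col-0, 192 in the array titled MKK2-w.t.4 and 529 in the array titled MKK2-EE4. The MKK2 arrays thus lay on opposite sides of Col-0. Over all named genes 0.285% were 2-fold or more lower in the array titled MKK2-w.t.4. CHLM, a methyltransferase of the pathway, was at 2155 and 1884, HEMB1 at 425 and 475, and HEME2 at 395 and 393.

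Genes of the plastid's own genome, 69 in all, had a median log2 ratio of -0.08, with 3 genes higher and none lower. All 69 had a signal of at least 25 on either array, and 1.96% of named genes with such a signal were higher. rbcL, the large subunit of rubisco, had 366 in Col-0, 925 in the array titled MKK2-w.t.4 and 763 in the array titled MKK2-EE4. psbB, a core antenna of photosystem II, had 407, 894 and 1027, and petG, of the cytochrome complex, had 95.5, 265 and 187. The remaining 66 plastid genes had log2 ratios between -0.52 (rps18) and 0.44 (rpoB). None of 16 mitochondrial genes passed 2-fold, which is near the background and is not a result about them. The gene nad4 was at 329 and 451.

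Enzyme families of detoxification and redox control gave no gene past 2-fold, which is near the background of 1.96% and is not a result about these families. None of 51 glucosyltransferases, 24 cytochrome P450 genes, 13 glutathione transferases, 11 thioredoxins and glutaredoxins or 10 peroxidases and related enzymes reached it. Many were too dim to read: 23 of the glucosyltransferases and 13 of the P450 genes reached 25 on either Col-0 or the array titled MKK2-w.t.4. GT72B1, a glucosyltransferase of foreign compounds, had 218, 354 and 286, a log2 ratio of 0.70. UGT88A1 was at 879 and 838, GSTL3 at 516 and 575, PRXR1 at 2288 and 2560.0 and CYP71B6 at 284 and 240.5.

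Counts in primary metabolism and housekeeping genes are read against the 1.96% higher among named genes with a signal of at least 25. Of 15 genes of glycolysis, the citrate cycle and respiration, PDC2, a pyruvate decarboxylase of fermentation, was 2-fold or more higher, with 32.4 in Col-0, 79.6 in the array titled MKK2-w.t.4 and 55.6 in the array titled MKK2-EE4. PDC2 was named after its values were seen, and 11 of the 15 genes had a signal of at least 25 on either array. GAPC2 was at 4031 and 3721. None of 14 proteasome and ubiquitin-conjugating genes passed 2-fold, which is near the background and is not a result about them. UBC28 was at 3973 and 3768. The 6 common reference genes had a median log2 ratio of 0.01 and ranged from -0.12 (GAPC2) to 0.15 (AT4G26410).

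The lower side was shallow. Of the 30 named genes furthest below Col-0 with a signal of at least 100, only 13 passed 2-fold. AT1G04770, from the sulphur deficiency list, was the lowest, with 384 in Col-0, 103 in the array titled MKK2-w.t.4 and 138 in the array titled MKK2-EE4. The other sulphur genes with a named probe set, the ATP sulphurylases APS4 and APS3, had log2 ratios of 0.08 and 0.30. DIM1A, a dimethyltransferase of ribosomal RNA, had 307, 137 and 234, while its relative DIM1B was at 70.5 and 76.4.

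Several lower genes were near Col-0 in the other MKK2 array. AT3G50430 had 109 in Col-0, 40.4 in the array titled MKK2-w.t.4 and 107 in the array titled MKK2-EE4. AT1G72410 had 207, 78.8 and 195, but its other probe set was under the floor and gave a log2 ratio of 0. AT1G47970 differed from them, at 102, 32.5 and 37.7, with both MKK2 arrays low. Just inside 2-fold were SIS, a salt-induced serine-rich protein gene (log2 ratio -0.97), LEP, a regulator of petiole form (-0.95), TRM20 (-0.94) and the carboxypeptidase-like SCPL34 (-0.88).

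**Figure D4:**
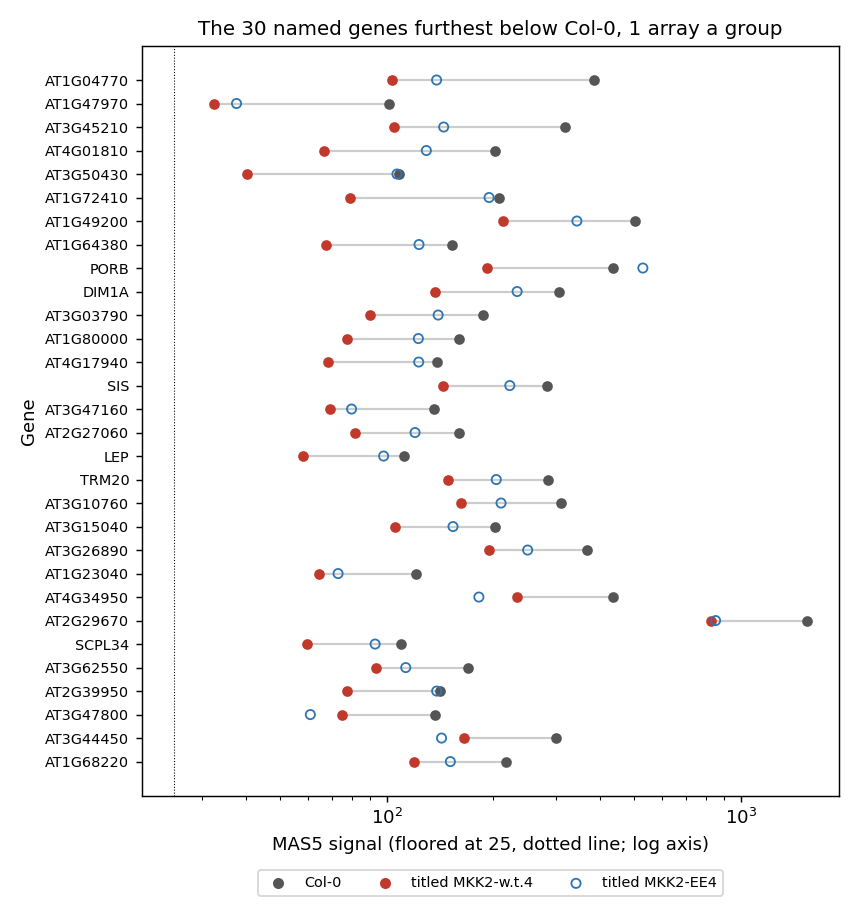
MAS5 signals (x axis, logarithmic, floor of 25 dotted) of the 30 named genes furthest below Col-0 with a signal of at least 100 on either array. Grey is Col-0, red the array titled MKK2-w.t.4 and open blue circles the array titled MKK2-EE4, which for PORB lies above Col-0.

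The largest differences on the array belonged to probe sets without a gene name in the annotation used here. The highest of them gave 60.9 in Col-0, 975 in the array titled MKK2-w.t.4 and 713 in the array titled MKK2-EE4, a log2 ratio of 4.00. The lowest gave 1771, 264 and 512, a log2 ratio of -2.74, and the next lowest 372, 74.2 and 107. Of the 318 higher probe sets 167 name no gene, and of the 89 lower ones 49 name none.

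Gene length, which had no part in the choice, differed between the higher genes and the rest. The comparison was chosen after the values were seen and uses the span from start to end of each gene in the TAIR10.1 annotation, for genes with a signal of at least 100 on either array. The median span was 1601 bases for 104 of the 108 higher genes, 1870 for the 13 lower genes and 2222 for genes within 1.1-fold of Col-0. Of 619 genes spanning under 1500 bases, 8.24% were 2-fold or more higher, and of 819 spanning 3000 bases or more, 1.22% were. The lower shares were 0.485% and 0.611%. The order held within signal bands: 6.67% against 0.617% at a higher signal of 100 to 200, 7.92% against 2.77% at 200 to 500, and 10.7% against 0% above 500. At 1.5-fold long genes were more often lower, 7.08% against 2.75% of short ones.

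**Figure D5:**
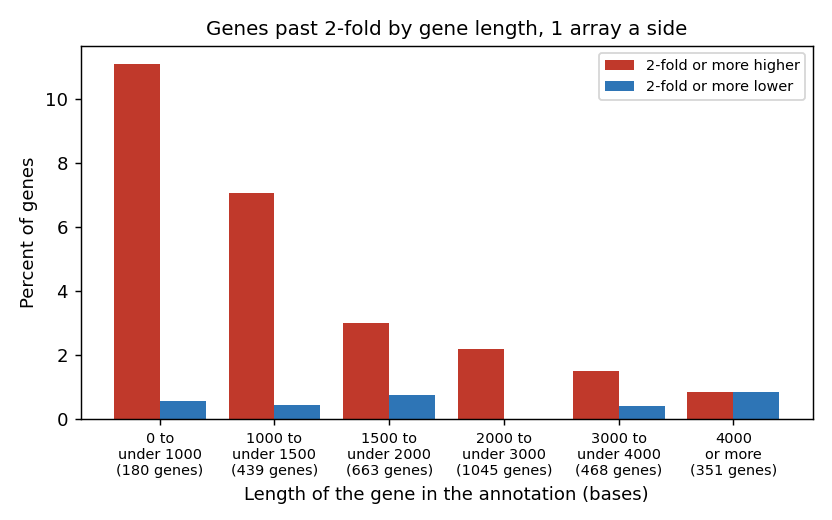
Percent of named genes with a signal of at least 100 on either array that were 2-fold or more higher (red) or lower (blue), by the length of the gene in the annotation, with the number of genes in each class. The share of higher genes goes from 11.1% in genes under 1000 bases to 0.855% in genes of 4000 bases or more.

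RNA quality measures moved between these arrays too. The ratio of the 3′ to the 5′ signal of the actin control, which grows as RNA is degraded or labelled incompletely, was 3.03 in Col-0 and 4.09 in the array titled MKK2-w.t.4. It was 2.19 and 2.29 for GAPDH and 3.75 and 2.92 for ubiquitin, the last in the opposite direction. In a further set of controls actin stood at 2.83 and 2.88, GAPDH at 0.816 and 1.15, and ubiquitin at 2.03 and 1.77. Their part in the relation with gene length was not tested. The rapid stress-response genes and the length classes rest on the same single pair of arrays.

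Among the higher genes that could be placed on a chromosome, 1 stretch held 3 of them within 5 consecutive genes, and its measured members were all higher. It was picked out after the values were seen. In 3 looser pairs within 5 gene positions, the measured genes in between did not reach 2-fold. AT1G72900, AT1G72920 and AT1G72940 had log2 ratios of 1.65, 2.01 and 1.99. AT1G72920 was at 53.6 in Col-0, 216 in the array titled MKK2-w.t.4 and 235 in the array titled MKK2-EE4. Of the 9 measured loci from AT1G72840 to AT1G72950, AT1G72890 came next with 0.93, AT1G72860 and AT1G72870 were below Col-0, and 3 were under 25 on both arrays. Probes of related neighbouring genes can read each other's transcripts, which was not tested.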

How the data were processed

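Leaf RNA of 3 plant lines was hybridised to 1 array each. The authors' deposited values are linear intensities, 1 for each probe set, made with MAS5 as the submitters' processing notes record. The chip's genome build is not stated in those notes or in the labels. Each array was rescaled to a trimmed mean of 100 (2% off each end), values under 25 were set to 25, and log2 ratios over Col-0 were taken. Genes came from the platform annotation, updated to the RefSeq TAIR10.1 table: 13436 of 13513 probe sets with 1 gene matched, 503 list several and 8730 none. The brightest probe set stood for a gene. The genes picked by rule for the text were the 30 highest and 30 lowest named genes with a signal of at least 100. From each group, up to 6 past 2-fold and the 6 brightest were added. Groups came from name patterns and hand-written lists. The members and lists were chosen with earlier results of these data known, and name patterns that had matched unrelated genes were corrected after their values were seen. The 192 hand-listed loci had a named probe set for 33. With 1 array a group the number of arrays limits precision and no test was made. A planned search of promoters for motifs was not run, since no promoter sequence was used here. Alternatives were quantile and loess normalization (span 0.4), other floors, a pseudocount of 16 and other thresholds. The counting was tested on simulated data. Python 3.11.15, numpy 2.4.6, pandas 2.3.3 and statsmodels 0.14.6 were used.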

Additional observations from a re-analysis of the deposited data

Results flagged for a closer look

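PORB, the protochlorophyllide oxidoreductase gene, had a log2 ratio of -1.18 in the array titled MKK2-w.t.4 and 0.28 in the array titled MKK2-EE4. The MKK2 arrays lay on opposite sides of the shared Col-0 array, with signals of 192 and 529 against 435. With 1 array a group the difference was not tested.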

How the results depend on the processing

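The number of lower probe sets, 89 as reported, depended on the processing more than the number of higher ones, 318. Lower probe sets numbered 59 after quantile normalization, 50 after loess centring, 508 with a floor of 10, 37 with a floor of 50 and 37 where a signal of at least 100 was required. Higher ones numbered 354, 383, 449, 245 and 245 in the same order. At 1.5-fold 754 were higher and 891 lower, and at 3-fold 121 and 12. A pseudocount of 16 without a floor gave 288 and 89, no rescaling 318 and 89, and leaving out probe sets with a letter before _at 300 and 83. Higher probe sets made up 78.1% of the differing ones as reported, 88.5% after loess centring, 46.9% with a floor of 10, 45.8% at 1.5-fold and 91% at 3-fold. The cause was not tested. The settings were also compared for 57 genes past 2-fold, picked from the highest and lowest genes and from the groups. Of these 57, 56 were still past 2-fold after quantile normalization, 54 after loess centring and 57 with a floor of 10. With a floor of 50 it was 55, and with the pseudocount 50, while 37 were past 3-fold. None changed direction under these settings. These genes were picked partly for large ratios, so their counts do not describe all named genes past 2-fold. At 3-fold 1 of 15 ubiquitin ligase genes and 1 of 7 WRKY genes were higher, against 4 and 2 at 2-fold. The share of short genes that were higher lay between 4.2% and 13.1% over all settings, and that of long genes between 0.611% and 2.81%. The promoter motif search was not run. No paired analysis was possible because each group has 1 array. Signals under 25 carry no readable difference.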
